A study of Mus musculus with 4 samples.

Results

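Antioxidant defence genes are described here in mouse bone marrow cells sorted for blood stem cells. The list named 38 genes by their known function, and a gene counted as measured when the array had a probe set assigned to it alone. Of the 38 genes, 34 were measured, out of 22180 genes measured in all. Prdx1, Prdx5, Prdx6 and G6pdx had no probe set with their symbol alone and were not analysed here. Where a gene had several probe sets, the brightest over all arrays stood for it.

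Cells make superoxide and hydrogen peroxide as by-products of respiration and of signalling. Superoxide dismutases turn superoxide into hydrogen peroxide, and catalase, glutathione peroxidases and peroxiredoxins remove the peroxide. The peroxidases are recharged by glutathione or by thioredoxin, and both draw on NADPH. The transcription factor NRF2, held in check by KEAP1, turns on many of these genes, and FOXO factors are known to turn on others, such as Sod2 and Cat. Blood stem cells are known for low oxidant levels and for their sensitivity to oxidants, and loss of Foxo3a or of the Fanconi anaemia pathway is known to make cells sensitive to oxidative stress.

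The study had 4 genotypes with 1 Affymetrix Mouse Gene 2.0 ST array each. They were wild-type mice (WT), mice without Fancd2 (Fancd2KO), mice without Foxo3a (Foxo3aKO), and mice without either gene (DKO). All mice were 2 months old, all samples were total RNA from marrow mononuclear cells sorted as Lin-ckit+Sca-1+CD34- and called SLAM cells in the labels, and no treatment was named. The sources used here do not give the knockout alleles, the strain, or how many mice and cells stand behind an array. The design asks how loss of Fancd2, of Foxo3a and of both goes with expression. With 1 array per genotype there is no replicate error and no test, so each value below describes these arrays and has no replicate check. Precision is limited by the number of arrays.

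Values are log2 signals, so a log2 difference of 1 is 2-fold and 0.58 is 1.5-fold. As a yardstick of technical error, genes with exactly 2 probe sets were used, 968 in number. The differences that both probe sets of a gene gave for Fancd2KO minus WT disagreed with an SD of 0.48, and 95% of the genes disagreed by less than 0.91. For Foxo3aKO minus WT these values were 0.47 and 0.94, and for DKO minus WT 0.50 and 0.94. Differences of 1.5-fold therefore lie inside that disagreement and are given as descriptions.

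Array medians ran from 5.27 to 5.34, and pairs of arrays correlated at 0.965 to 0.969. Fancd2 stood at 6.56 on the WT array, 6.08 on Fancd2KO, 6.67 on Foxo3aKO and 5.84 on DKO, and Foxo3 stood at 6.62, 6.72, 6.64 and 6.51 in the same order. Foxo3 was thus not lower on the arrays labelled as lacking it. Which exons its probes cover and which were deleted is not known here, so its signal checks nothing and the direction of Foxo3a loss rests on the labels. Foxo3aKO and DKO below mean the arrays labelled so. All 13 measured stem cell markers lay above the median of all gene values on every array, with Kit at 10.41 to 10.67 and Hoxb5 at 5.93 to 6.58, below 6.81 on all arrays. The stem cell markers furthest from WT were Tek, at 6.99 on WT and 5.74 on DKO, and Slamf1, at 7.25 on WT and 8.36 on Fancd2KO. Of the antigens that the gate should have removed, Itgam at 8.86 to 10.46, Ly6g at 7.96 to 10.47 and Cd34 at 9.67 to 10.79 gave clear signal, while Cd3e (4.75 to 5.82), Cd4 (4.90 to 5.56) and Cd8a (5.18 to 5.62) lay near that median. Both Xist (10.18 to 10.84 on the knockout arrays and 11.06 on WT) and the Y-linked Eif2s3y (7.92 to 8.81) gave signal on all 4 arrays. Control probe sets of high GC content, which measure background, had a median of 6.10 on the Foxo3aKO array against 6.55 to 6.81 on the others. Of the 34 members, 10 stayed below 6.81 on all arrays, namely Sod3, Gpx3, Gpx4, Gpx7, Gpx8, Srxn1, Txnrd2, Txnrd3, Keap1 and Nqo1. Sod3, Gpx3 and Gpx8 also stayed below the median of all gene values, 5.51, called the floor below.

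Promoters that carry a known motif of FOXO or NRF2 are shown first, because these factors act on many members and Foxo3a is a gene the study removed. Sequences are RefSeq promoters of assembly GRCm38.p6, from 250 bases before to 50 bases after each annotated start, and 32 of the 38 listed genes had one. Sod3, Prdx6, Msra, Gclc, Gsr and Hmox1 had none in the table used and were not searched. The antioxidant response core TGACNNNGC, bound by NRF2 with small MAF proteins, and the forkhead core GTAAACA, bound by FOXO factors, were searched on both strands. The forkhead core was in a promoter of 3 of the 32 members (9.38%) and of 4.05% of 27025 genes. The 3 members were Txnip, Glrx2 and Slc7a11. Upstream stretches of 250 bases of Txnip (chr3:96557707-96557956, plus strand) and Slc7a11 (chr3:50443614-50443863, minus strand) and a stretch of 30 bases of Glrx2 (chr1:143739300-143739329, plus strand) are given 5′ to 3′ on the strand of the gene. Capitals mark the forkhead core and, in Slc7a11, a pair of amino acid response cores TGATGNAA, the kind of site bound by the stress factor ATF4. The latter motif was chosen after the promoters had been searched and was in a promoter of 1 member and of 4.51% of all genes.
Txnip: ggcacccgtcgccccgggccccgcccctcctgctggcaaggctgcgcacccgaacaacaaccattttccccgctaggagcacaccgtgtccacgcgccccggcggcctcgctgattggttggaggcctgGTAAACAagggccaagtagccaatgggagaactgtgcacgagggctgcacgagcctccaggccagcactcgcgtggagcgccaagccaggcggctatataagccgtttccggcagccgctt
Slc7a11: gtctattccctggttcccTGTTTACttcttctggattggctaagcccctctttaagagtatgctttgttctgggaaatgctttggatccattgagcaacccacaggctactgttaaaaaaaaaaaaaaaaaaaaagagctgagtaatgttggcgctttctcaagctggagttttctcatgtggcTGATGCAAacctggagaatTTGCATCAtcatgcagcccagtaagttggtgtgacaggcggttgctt
Glrx2: accaccctcagGTAAACAccgggccaccac

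In Txnip the forkhead core began 121 bases before the start, in Glrx2 38 bases before 1 of its annotated starts, and in Slc7a11 232 bases before the start, on the opposite strand. The 3 genes did not share a direction. In Foxo3aKO minus WT, Txnip differed by -0.81, Glrx2 by -0.40 and Slc7a11 by 1.82. A match is a description of letters and not a site.

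The antioxidant response core was in a promoter of 7 of the 32 members (21.9%) and of 14% of all genes. Windows of 30 bases are given 5′ to 3′ on the gene's strand for the 5 of them that were measured, with the core in capitals, because they show which measured members carry it: Sod1 (chr16:90220696-90220725, plus strand), Srxn1 (chr2:152105542-152105571, plus strand), Txnrd1 (chr10:82859104-82859133, plus strand), Gclm (chr3:122245413-122245442, plus strand) and Nfe2l2 (chr2:75704884-75704913, minus strand).
Sod1: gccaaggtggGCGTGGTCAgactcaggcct
Srxn1: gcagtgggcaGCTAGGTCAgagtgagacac
Txnrd1: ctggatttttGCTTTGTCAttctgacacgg
Gclm: gctcccgggcGCACCGTCAactctcacgag
Nfe2l2: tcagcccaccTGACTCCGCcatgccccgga

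The core began 56 bases before the start in Sod1, 92 before in Txnrd1, 134 before in Gclm and 240 before in Nfe2l2, and 28 bases after it in Srxn1. All 5 stayed within 1.5-fold of WT on every knockout array, from -0.19 for Txnrd1 in DKO to 0.41 for Gclm in Fancd2KO. The other 2 genes with the core, Prdx1 and G6pdx, were not analysed here.

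Most antioxidant genes differed little between the arrays, as most genes did, and a small number of members stood out on each. At least 1.5-fold from WT in either direction were 2.94% of members in Fancd2KO, 20.6% in Foxo3aKO and 11.8% in DKO. Over all genes these shares were 9.9%, 10.5% and 9.88%. In bulk RNA fewer cells of a type and less RNA per cell cannot be told apart. In Fancd2KO the thioredoxin inhibitor Txnip was lower. In Foxo3aKO the cystine transporter Slc7a11 and the glutaredoxin Glrx were higher, while Txnip, Glrx5 and Prdx3 were lower. In DKO the haem-degrading enzyme Hmox1 was higher and catalase and Txnip were lower. The summed linear signal of the 34 members was 17579 on WT, 17487 on Fancd2KO, 16949 on Foxo3aKO and 17280 on DKO.

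**Figure D1:**
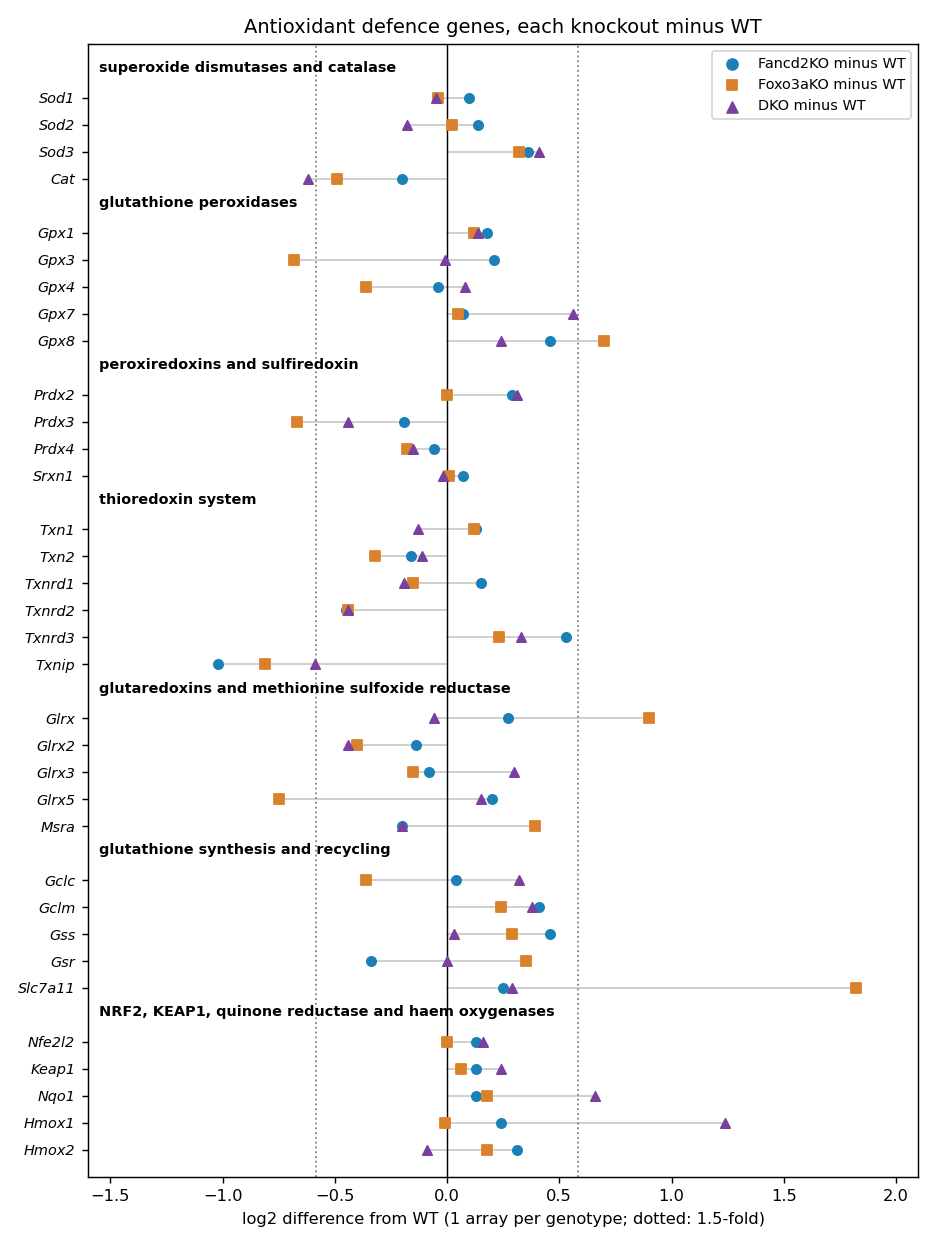
Log2 difference from WT (x axis) of each of the 34 measured members (y axis, grouped by role) for Fancd2KO (circles), Foxo3aKO (squares) and DKO (triangles), 1 array each, with dotted lines at 1.5-fold. Most points lie between the dotted lines, and Slc7a11 in Foxo3aKO (1.82), Hmox1 in DKO (1.24) and Txnip in Fancd2KO (-1.02) lie farthest out.

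In Fancd2KO minus WT the median over the 34 members was 0.13, against 0.00 over all genes, and 23 members were higher and 11 lower. None of the 34 was at least 1.5-fold higher, a size that 4.77% of all genes reached, and 1 (2.94%) was at least 1.5-fold lower, against 5.13% of all genes. That member, Txnip, was also the 1 member at least 2-fold apart (2.94%, against 2.16% of all genes). The members next in size were Txnrd3 (0.53), Gss (0.46) and the dim Gpx8 (0.46) on the high side and Txnrd2 (-0.45) and Gsr (-0.34) on the low side. The members differed by less than 0.25 in 22 of 34 cases, a share that was not computed for all genes, so nothing is read from it.

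In Foxo3aKO minus WT the median over members was 0.01, against -0.01 over all genes, with 19 higher and 15 lower. Over all genes 48.9% were higher and 51.0% lower. At least 1.5-fold higher were 3 members (8.82%, against 5.07% of all genes), namely Slc7a11, Glrx and the dim Gpx8. At least 1.5-fold lower were 4 members (11.8%, against 5.39%), namely Txnip, Glrx5, Gpx3 and Prdx3. Slc7a11 was the 1 member at least 2-fold apart (2.94%, against 2.17%). Gpx3 and Gpx8 lay below the floor on all arrays, which leaves 5 members in the measured range.

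In DKO minus WT the median was 0.02 over members and 0.02 over all genes, with 18 members higher and 16 lower. Over all genes 53.0% were higher and 46.9% lower. At least 1.5-fold higher were 2 members (5.88%, against 4.95% of all genes), Hmox1 and Nqo1, followed by Gpx7 at 0.56. At least 1.5-fold lower were 2 members (5.88%, against 4.93%), Cat and Txnip, followed by Prdx3, Txnrd2 and Glrx2 at -0.44 each. With quantile normalisation or cyclic loess 0 members were 1.5-fold lower. Hmox1 was the 1 member at least 2-fold apart (2.94%, against 2.17%).

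**Figure D2:**
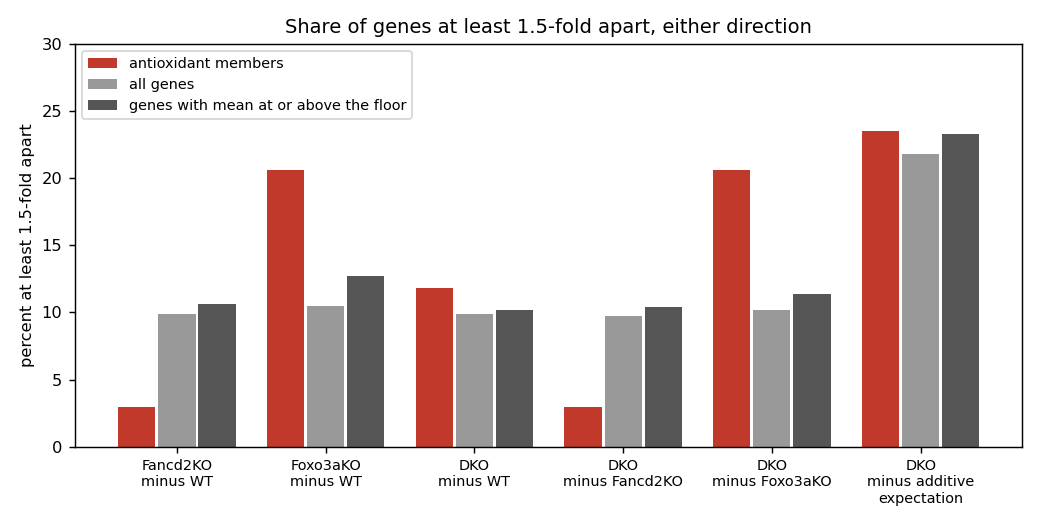
Percent of genes at least 1.5-fold apart in either direction (y axis) in each comparison (x axis), for the 34 antioxidant members, for all genes and for genes whose mean over the arrays lies at or above 5.51. The members' share is 20.6% in Foxo3aKO minus WT and in DKO minus Foxo3aKO and 2.94% in Fancd2KO minus WT, from 7, 7 and 1 genes.

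Sod1 and Sod2 stayed within 0.18 of WT on all knockout arrays. Sod1, the cytosolic enzyme, stood at 11.85 on WT, 11.95 on Fancd2KO, 11.81 on Foxo3aKO and 11.80 on DKO. Sod2, the mitochondrial enzyme and a known FOXO target, stood at 7.88, 8.02, 7.90 and 7.69 in the same order. Its Foxo3aKO value differed from WT by 0.02, a sign that turned to -0.04 with each array centred on its median. The extracellular Sod3 lay below the floor throughout, at 4.52 to 4.93.

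Catalase (Cat), which breaks down hydrogen peroxide in peroxisomes and is also known as a FOXO target, stood at 9.20 on WT, 9.0 on Fancd2KO, 8.71 on Foxo3aKO and 8.58 on DKO. WT was the highest of the 4 arrays and both arrays labelled as lacking Foxo3a were the lowest. The differences from WT were -0.20, -0.49 and -0.62, so the DKO signal was 65.2% of WT. Foxo3a loss went with a lower Cat signal on either background, by -0.49 in Foxo3aKO minus WT and by -0.42 in DKO minus Fancd2KO, a pair of comparisons that share no array. Each of these differences is smaller than the size that 95% of probe set pairs stayed under.

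Glutathione peroxidases reduce peroxides with glutathione, and Gpx4 acts on lipid peroxides in membranes. Gpx1, the main cytosolic form, stood at 12.21 on WT, 12.39 on Fancd2KO, 12.33 on Foxo3aKO and 12.35 on DKO, a spread of 0.18. Gpx4 stood at 6.42, 6.38, 6.06 and 6.50 and was lowest on Foxo3aKO, where the high-GC background also had its minimum. Gpx7, an enzyme of the endoplasmic reticulum, stood at 6.10, 6.17, 6.15 and 6.66, highest on DKO. Gpx3, a secreted form, ran from 4.09 to 4.99 and Gpx8 from 4.38 to 5.07, both below the floor, and their 1.5-fold differences in Foxo3aKO became 0.00 when signals below the floor were raised to it.

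Peroxiredoxins reduce peroxides through a reactive cysteine. The mitochondrial Prdx3, also known as a FOXO target, stood at 8.76 on WT, 8.57 on Fancd2KO, 8.09 on Foxo3aKO and 8.32 on DKO. It was lower than WT on every knockout array, by -0.19, -0.67 and -0.44. In DKO minus Fancd2KO it differed by -0.25. Prdx2, the form abundant in red cells, stood at 7.74, 8.03, 7.75 and 8.06, higher by 0.29 and 0.31 on the arrays labelled as lacking Fancd2 and at WT level on Foxo3aKO. Prdx4 of the secretory pathway ran from 7.11 to 7.29, and Srxn1, which repairs overoxidised peroxiredoxins and is a known NRF2 target, from 6.44 to 6.52.

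Txnip was the member furthest below WT in both single knockouts. The protein binds and inhibits thioredoxin and limits glucose uptake, and its gene responds to glucose and to FOXO factors. Its signal was 11.16 on WT, 10.14 on Fancd2KO, 10.35 on Foxo3aKO and 10.57 on DKO. WT stood alone above the 3 knockout arrays, whose values lay within 0.43 of each other. The differences were -1.02, -0.81 and -0.59, which put the signal at 49.4%, 57.1% and 66.5% of WT. Counting from the lowest, these were places 210, 436 and 1077 among 22180 genes. All 3 comparisons use the same WT array, so they are not independent of each other. Without WT, DKO exceeded Fancd2KO by 0.43 and Foxo3aKO by 0.22, and DKO stood 1.24 above the sum of both single differences. The Fancd2KO value was the only one of the 3 beyond the size that 95% of probe set pairs stayed under.

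The rest of the thioredoxin system stayed within 1.5-fold. Txn1, the cytosolic thioredoxin, stood at 8.77 on WT, 8.89 on Fancd2KO, 8.89 on Foxo3aKO and 8.64 on DKO, so the lower Txnip signal had no opposite difference of like size in its binding partner. The reductase of Txn1, Txnrd1, ran from 7.90 to 8.23. The mitochondrial pair Txn2 and Txnrd2 was lower than WT on all knockout arrays: Txn2 by -0.16, -0.32 and -0.11, and Txnrd2 by -0.45, -0.44 and -0.44. Txnrd2 stood at 6.64 on WT and at 6.19 to 6.20 on the others, inside the range of the high-GC background. Txnrd3, a form best known from testis, was higher by 0.53, 0.23 and 0.33.

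Glutaredoxins use glutathione to reduce disulfides, and Glrx5 serves iron-sulfur cluster assembly in mitochondria. Glrx, the cytosolic form, stood at 8.15 on WT, 8.42 on Fancd2KO, 9.05 on Foxo3aKO and 8.09 on DKO. Foxo3aKO stood above the other 3 arrays, 0.90 or 1.87-fold above WT. Glrx5 went the other way on the same array, at 9.02, 9.21, 8.27 and 9.16. Its second probe set gave 8.48, 8.84, 7.85 and 8.57, so both probe sets placed Foxo3aKO lowest, by -0.75 and -0.63 from WT. In DKO both genes were back near WT, with Glrx at -0.06, or 0.00 with cyclic loess, and Glrx5 at 0.15.

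Glrx2 of mitochondria and nucleus stood at 7.70, 7.57, 7.30 and 7.27, lowest on both arrays labelled as lacking Foxo3a. Glrx3, a cytosolic iron-sulfur protein, ran from 6.55 on Foxo3aKO to 7.0 on DKO. Msra, which repairs oxidised methionine, stood at 7.13, 6.93, 7.52 and 6.93, highest on Foxo3aKO.

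Glutathione synthesis held the largest difference among all members. Slc7a11 encodes the transporter that brings in cystine, the source of cysteine for glutathione. It stood at 5.52 on WT, 5.78 on Fancd2KO, 7.34 on Foxo3aKO and 5.81 on DKO. Foxo3aKO alone was high, with a measured difference from WT of 1.82, or 3.52-fold. The WT signal lay at the floor, and the signals on WT, Fancd2KO and DKO lay below the high-GC background of their arrays, so the size of the difference is uncertain. The second probe set gave 4.24, 4.34, 5.61 and 3.80, below the floor except on Foxo3aKO. Over the alternatives tried the difference ran from 1.59 to 1.84. In DKO the brighter probe set stood 1.53 below Foxo3aKO, which left DKO at -1.78 from the sum of both single differences. On both probe sets Foxo3aKO was the highest array, and the other arrays cannot be ordered from signals this dim.

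The partner chain of this transporter, Slc3a2, did not follow the same order. It stood at 8.48 on WT, 9.57 on Fancd2KO, 9.09 on Foxo3aKO and 8.74 on DKO, highest on Fancd2KO. Among the enzymes that build glutathione, the catalytic subunit gene Gclc stood at 7.66, 7.70, 7.30 and 7.98, and the modifier Gclm at 7.38, 7.79, 7.62 and 7.76. Gclm was higher than WT on all knockout arrays, by 0.41, 0.24 and 0.38, while Gclc was lowest on Foxo3aKO and highest on DKO, a gap of 0.68. Gss, the synthase, stood at 6.68, 7.14, 6.97 and 6.72. Gsr, which recharges oxidised glutathione, stood at 9.88, 9.55, 10.23 and 9.89, lower on Fancd2KO by -0.34 and higher on Foxo3aKO by 0.35.

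Hmox1 was the member furthest above WT in DKO. Haem oxygenase 1 breaks down haem to iron, carbon monoxide and biliverdin, and its gene is a known target of NRF2 and of the repressor BACH1. It stood at 7.63 on WT, 7.87 on Fancd2KO, 7.62 on Foxo3aKO and 8.87 on DKO. DKO alone was high, 1.24 or 2.36-fold above WT, place 113 of 22180 genes from the top. It exceeded Fancd2KO by 1.0 and Foxo3aKO by 1.25, and stood 1.01 above the sum of both single differences. The constitutive Hmox2 showed no such order, at 8.05, 8.35, 8.22 and 7.96.

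Nqo1, a quinone reductase and the usual readout of NRF2, was also highest on DKO, at 5.47 on WT, 5.59 on Fancd2KO, 5.65 on Foxo3aKO and 6.13 on DKO. These signals lie near the floor and below the high-GC background. Nfe2l2, which encodes NRF2, stood at 9.24, 9.37, 9.24 and 9.40, and Keap1 at 5.60, 5.74, 5.67 and 5.84. Nfe2l2 RNA thus varied by 0.16 over the arrays, although NRF2 is known to be controlled mainly through its protein.

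**Figure D3:**
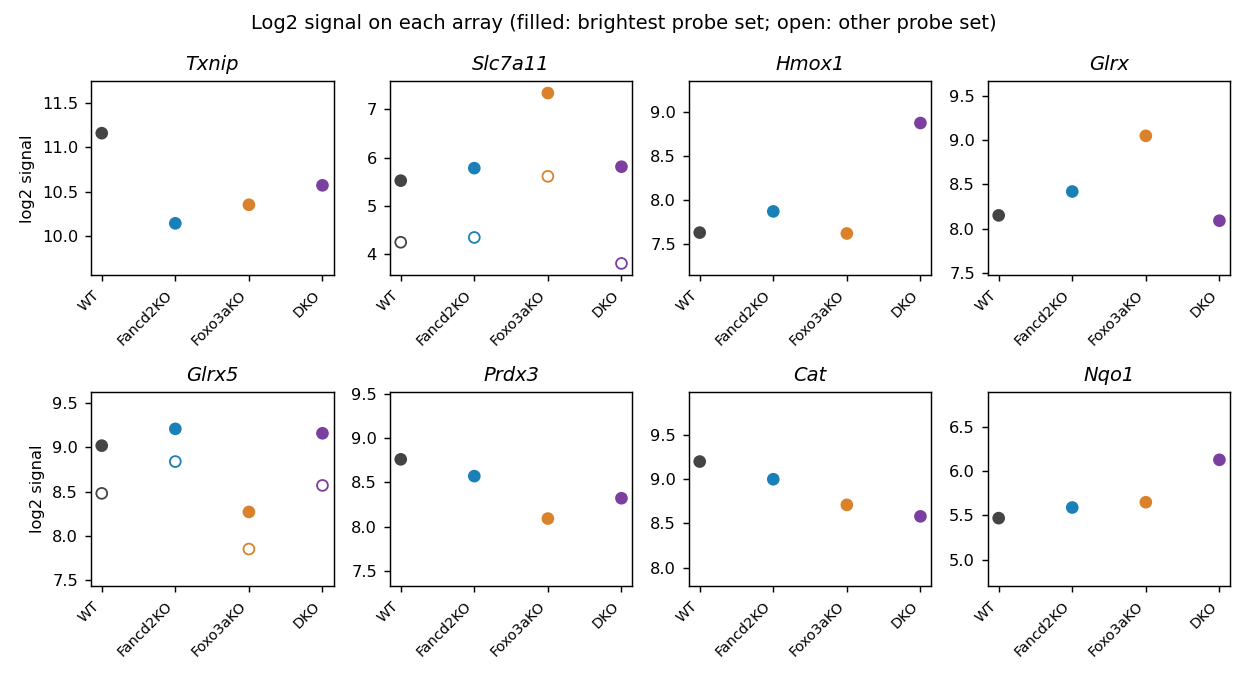
Log2 signal (y axis, own range per gene, all panels at least 2.2 high) on the 4 arrays (x axis) for 8 members, with filled points for the brightest probe set and open points for a second one. Slc7a11 and Glrx peak on Foxo3aKO (7.34 and 9.05), Hmox1 on DKO (8.87) and Txnip on WT (11.16), and both probe sets of Glrx5 are lowest on Foxo3aKO.

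The NRF2 targets among the members were not all higher on any knockout array. Of 9 measured, Gclc, Gclm, Gsr, Nqo1, Hmox1, Srxn1, Txnrd1, Txn1 and Slc7a11, 8 were higher than WT in Fancd2KO (median 0.13), 6 in Foxo3aKO (0.12) and 6 in DKO (0.29). Over all genes 49.8%, 48.9% and 53.0% were higher in the same comparisons. In DKO the range ran from -0.19 for Txnrd1 to 1.24 for Hmox1. With the mean of all probe sets, the DKO median was 0.00.

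FOXO targets among the members were more often lower than higher. Of 7 measured, Sod2, Cat, Prdx3, Txn2, Txnrd2, Txnip and Gpx1, 5 were lower in Fancd2KO (median -0.19), 5 in Foxo3aKO (-0.44) and 6 in DKO (-0.44). Over all genes 50%, 51.0% and 46.9% were lower, and over genes with a mean at or above the floor 52.2%, 56.4% and 54.6%. All these counts use the same WT array. Foxo3aKO minus WT and DKO minus Fancd2KO, which share no array, had the same sign in 2 of the 7 (28.6%), against 49.9% of all genes. Very small differences decide this count. With median centring Sod2 turned from 0.02 to -0.04 in the first comparison and Txnrd2 from 0.01 to -0.03 in the second. With cyclic loess Gpx1 turned from -0.04 to 0.01 in the second, so nothing is read from the low share. Of the 6 measured mitochondrial members, Sod2, Prdx3, Txn2, Txnrd2, Glrx2 and Glrx5, 4 were lower in Fancd2KO (median -0.15), 5 in Foxo3aKO (-0.42) and 5 in DKO (-0.31). Sod2, Prdx3, Txn2 and Txnrd2 are in both groups. DKO minus Fancd2KO gave medians of -0.04 for the FOXO targets and -0.15 for the mitochondrial members, so the lower level against WT was smaller in that comparison.

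DKO and Fancd2KO are both labelled as lacking Fancd2 and differ in the Foxo3a label. In DKO minus Fancd2KO, 1 of 34 members (2.94%) was at least 1.5-fold apart, against 9.7% of all genes. That member was Hmox1. DKO and Foxo3aKO are both labelled as lacking Foxo3a and differ in the Fancd2 label. In DKO minus Foxo3aKO, 7 members (20.6%) were at least 1.5-fold apart, against 10.2% of all genes. Hmox1 (1.25), Glrx5 (0.89), Gclc (0.68) and the dim Gpx3 (0.67) were higher, and Slc7a11 (-1.53), Glrx (-0.97) and Msra (-0.59) were lower. Msra fell short of 1.5-fold with quantile normalisation (-0.57) and with median centring (-0.56). In DKO minus the additive expectation, 8 members (23.5%) were at least 1.5-fold apart, against 21.8% of all genes. Txnip (1.24), Hmox1 (1.01), Glrx5 (0.70) and Gclc (0.64) lay above the expectation, and Slc7a11 (-1.78), Glrx (-1.24), the dim Gpx8 (-0.93) and Gss (-0.71) lay below it. With the mean of its probe sets Glrx5 stood at 0.53, short of 1.5-fold. This comparison carries the error of 4 arrays, and 95% of probe set pairs disagreed by up to 1.39, which Slc7a11 alone exceeded.

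Arrays with and without each loss can be compared on 2 backgrounds that share no array. Foxo3aKO minus WT and DKO minus Fancd2KO had the same sign in 16 of 34 members (47.1%), against 49.9% of all genes. Lower in both were Sod1, Cat, Gpx3, Prdx3, Prdx4, Txnrd1, Glrx2 and Glrx5, and the sign was held by at most 0.05 in 1 of the comparisons for Sod1 and Glrx5. Fancd2KO minus WT and DKO minus Foxo3aKO had the same sign in 18 of 34 members (52.9%), against 49.0% of all genes. Both shares lie near those of all genes. At least 1.5-fold apart in the same direction in both comparisons were 0 of 34 members for Foxo3a loss, against 0.893% of all genes, and 0 of 34 for Fancd2 loss, against 0.983%. At such shares none or few of 34 genes would be counted, so nothing is read from the 0.

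**Figure D4:**
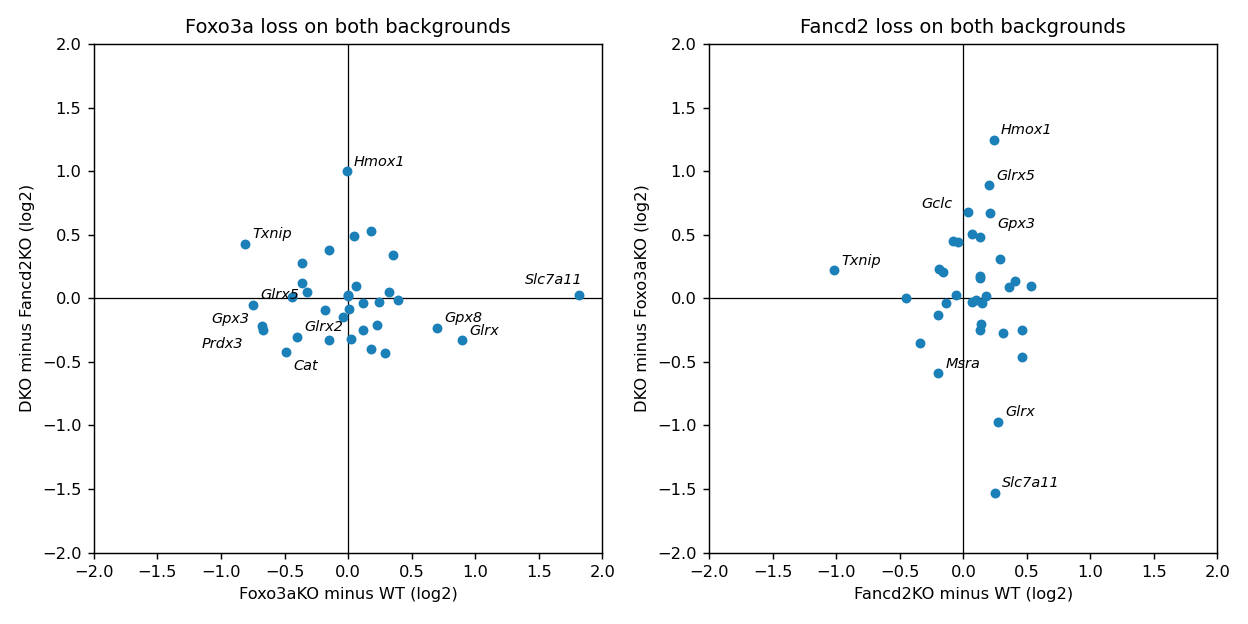
Log2 difference of each of the 34 members for Foxo3a loss (left) and Fancd2 loss (right), without the other loss on the x axis and with it on the y axis. Slc7a11 lies at 1.82 and 0.03 on the left, Hmox1 at 0.24 and 1.25 on the right, and Txnip at -1.02 and 0.22 on the right.

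Other genes of the pathway, 154 measured in 8 lists, were chosen by known function, with earlier results of these data known. They include the targeted genes Fancd2 and Foxo3, and Fancd2 (-0.72 in DKO) is among those counted as lower in DKO. The 154 had medians of 0.00 in Fancd2KO, 0.00 in Foxo3aKO and -0.07 in DKO against WT. At least 1.5-fold higher or lower were 8 and 11 in Fancd2KO, 10 and 14 in Foxo3aKO, and 8 and 10 in DKO. These are 5.19% and 7.14%, 6.49% and 9.09%, and 5.19% and 6.49% of the 154, against 4.77% and 5.13%, 5.07% and 5.39%, and 4.95% and 4.93% of all genes. Among glutathione transferases and related genes Gstt2, a transferase of the theta class, was lower on all knockout arrays, at 6.91 on WT, 6.23 on Fancd2KO, 6.02 on Foxo3aKO and 5.53 on DKO. Gsto2 was 1.02 higher in Foxo3aKO from a signal of 4.54 on WT, below the floor. None of 17 NADPH supply genes was 2-fold apart from WT, and Shmt2 in Foxo3aKO was furthest, at -0.76.

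Metallothioneins, small metal-binding proteins that also respond to oxidants, had their highest signals on the arrays labelled as lacking Fancd2. Mt1 stood at 7.70 on WT, 8.85 on Fancd2KO, 8.23 on Foxo3aKO and 8.56 on DKO, and Mt2 at 7.08, 8.02, 6.89 and 8.59. Mt2 was higher on both arrays without Fancd2, by 0.94 and 1.52 from WT, and stood lowest on Foxo3aKO. The genes are close paralogs, so the split of signal between them is uncertain. Downstream of Hmox1, the biliverdin reductase gene Blvrb stood at 6.76, 6.47, 5.70 and 6.45, lowest on Foxo3aKO. The other biliverdin reductase gene, Blvra, stood at 7.24, 7.35, 7.40 and 7.92, highest on DKO and 0.69 above WT there. The iron exporter gene Slc40a1 stood at 7.43, 6.38, 6.77 and 7.04, highest on WT.

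Among regulators of oxidant levels, Sesn3, a sestrin known as a FOXO target, was the furthest from WT on each knockout array, at -0.63, -0.81 and -0.96, and no gene of that list reached 2-fold. Of 14 NRF2 regulators and partners none was 2-fold apart from WT, and Nfe2 in Fancd2KO was furthest, at -0.62. Selenoprotein genes and other thioredoxin fold genes also held none at 2-fold, with Msrb1 at 0.94 and Tmx4 at 0.92 in Foxo3aKO as the furthest. Among enzymes that make oxidants, the eosinophil peroxidase gene Epx was far below WT, by -2.71, -1.81 and -3.27, and Xdh, the xanthine oxidase gene, was 1.1 higher in Foxo3aKO. Of 17 markers of eosinophils, basophils and mast cells, a list that holds Epx, 17 were lower in Fancd2KO, 12 in Foxo3aKO and 15 in DKO. Their summed signal was 9708 on WT, 3810 on Fancd2KO, 6549 on Foxo3aKO and 3348 on DKO, with Ccr3, Il5ra, Fcer1a, Mcpt4, Tpsb2 and Cma1 below the floor on all arrays. Their part in the Epx value was not tested.

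Markers of other blood cells differed on the same arrays. The marker lists were chosen with earlier results of these data known. On Foxo3aKO, where Slc7a11 and Glrx were high, 17 of 19 neutrophil markers were higher than WT. So were 19 of 20 measured monocyte and macrophage markers, against 48.9% of all genes. Summed neutrophil signal was 45107 on WT, 38550 on Fancd2KO, 58900 on Foxo3aKO and 37879 on DKO, and no marker of that list lay below the floor on all arrays. Summed monocyte and macrophage signal was 7171, 5814, 10186 and 13857, again with none below the floor throughout. The neutrophil sum was highest on Foxo3aKO, as Slc7a11 and Glrx were. So were the sums of T and NK cell markers (1441 on WT, 1610, 2024 and 1375) and of megakaryocyte and platelet markers (1585, 1577, 1852 and 1189). Of 12 measured megakaryocyte and platelet markers, however, 9 were lower than WT on Foxo3aKO. The order of the other arrays is not compared for Slc7a11, which was too dim on them to be ordered. Glrx stood at 8.42 on Fancd2KO, above 8.15 on WT, although the neutrophil sum was below WT there. On DKO Glrx was near WT (-0.06), with the neutrophil sum again below WT. The part of any of these cells in the Slc7a11 and Glrx values was not tested.

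On DKO, where Hmox1 was high, 16 of 20 monocyte and macrophage markers were higher than WT, against 53.0% of all genes. They ran from F13a1 at -1.21 to Clec4a3 at 4.01 and Fcgr4 at 4.08. Hmox1 was at WT level on Foxo3aKO (-0.01, or 0.04 with cyclic loess), where 19 of these 20 markers were also higher. The median difference of the markers from WT was 0.62 in Foxo3aKO and 1.26 in DKO. At least 2-fold higher were 6 of them in Foxo3aKO and 12 in DKO, and at least 2-fold lower were 0 and 1. Over all genes 2.17% were 2-fold apart either way in each comparison. The part of these cells in the DKO value was not tested. Of 12 measured erythroid markers, 12 were lower in Fancd2KO, 11 in Foxo3aKO and 6 in DKO, with summed signals of 3787 on WT, 2862, 2826 and 4186 and none below the floor throughout. Glrx5 was low on Foxo3aKO only and not on Fancd2KO, where the erythroid sum was about as low, and the part of erythroid RNA in the Glrx5 and Prdx3 values was not tested.

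Immediate early genes respond within minutes to handling and stress. Of 24 measured, 24 were higher than WT in Fancd2KO (median 1.1), 24 in Foxo3aKO (1.11) and 14 in DKO (0.07). Over all genes 49.8%, 48.9% and 53.0% were higher in the same comparisons. The genes of this list were chosen with earlier results of these data known, so their counts are no independent evidence. Their summed signal was 10403 on WT, 22320 on Fancd2KO, 21576 on Foxo3aKO and 10884 on DKO. Txnip was lowest on the arrays with the highest such sums and was also below WT on DKO, where the sum was close to that of WT. The part of this response in the Txnip values was not tested. The 13 measured stem cell markers summed to 6131, 5885, 5409 and 5389.

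**Figure D5:**
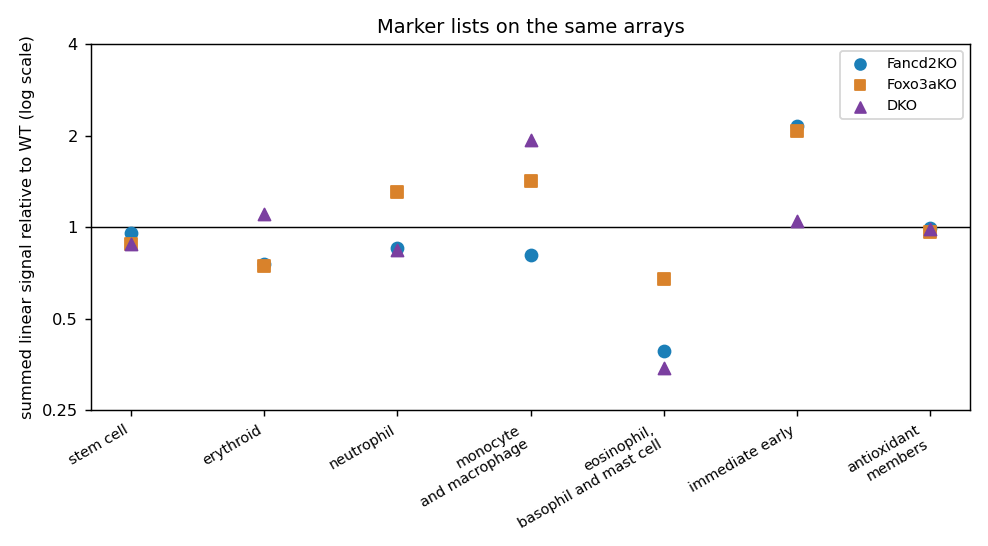
Summed linear signal relative to WT (y axis, log scale) of marker lists and of the 34 antioxidant members (x axis) on the Fancd2KO (circle), Foxo3aKO (square) and DKO (triangle) arrays. The neutrophil sum is highest on Foxo3aKO and the monocyte and macrophage sum on DKO. The antioxidant sum, which the brightest members dominate, stays close to 1 on all 3.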

How the data were processed

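RNA from sorted cells was measured on 4 arrays, 1 per genotype, and groups were taken from the genotype labels. The values used were the log2 expression values per probe set deposited by the authors. Per the submitters' processing notes, Affymetrix Expression Console was used. Its version and the methods of summarisation and normalisation are not given in the sources used here. Once sorted, the arrays' values differed from their mean distribution by at most 0.0889, so no further normalisation was applied. A deposited normalisation that equalises arrays would hide a shift common to most genes.

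Of 41345 probe sets, 23521 had 1 gene symbol in the platform annotation, 1814 had several and 16010 were not listed. The brightest probe set stood for each of 22180 genes. Values were subtracted on the log2 scale. To get the additive expectation, both single differences were added to WT. Genes at least 1.5-fold and 2-fold apart were counted with no filter on low signal. No p-value is given because no genotype had replicates.

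The members and lists were chosen with earlier results of these data known. Given on every array were members at least 1.5-fold apart in any comparison and the 3 highest and lowest against WT. The remaining members are given by array or range, beyond that rule, to show each role group in full. Other pathway genes are named from 2-fold, at most 4 a list, and otherwise by the furthest. Of the marker lists, only those that bear on a member are described, with the T and NK cell and the megakaryocyte and platelet sums beside them. Kit, Hoxb5, Itgam, Ptprc, Cd48, Cd3e, Cd4, Cd8a, F13a1, Blvra and the targeted genes were named outside the rule. The amino acid response core was added after the promoters had been searched. Alternatives were quantile normalisation, median centring, cyclic loess (limma 3.58.1), the mean of all probe sets, 2 floors on dim genes, signals raised to the floor, and a 2-fold threshold. Computation used Python 3.11.15, numpy 2.4.6 and pandas 2.3.3, and the counting and the yardstick were tested on simulated data.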

Additional observations from a re-analysis of the deposited data

How the results depend on the processing

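Of 28 differences between arrays of members past 1.5-fold, 20 stayed past it under each alternative that measured them, and none changed sign. Gpx3 and Gpx8, below the floor on all arrays, became 0.00 with signals raised to the floor, and were left out by both filters on dim genes. With each array centred on its median, the median over members in Foxo3aKO minus WT was -0.05 in place of 0.01, and that over all genes -0.07. In DKO minus WT, members at least 1.5-fold lower numbered 0 with quantile normalisation and 0 with cyclic loess, in place of 2. At 2-fold, the counts higher and lower were 1 and 0 in Foxo3aKO minus WT, 1 and 0 in DKO minus WT, 1 and 1 in DKO minus Foxo3aKO and 2 and 2 in DKO minus the additive expectation, and 0 were higher in DKO minus Fancd2KO. The other counts and medians over all members, 126 values, stayed within 1.5 times (counts) or within a set band around the deposited value (medians). The band was the probe set SD divided by the square root of 2 and by that of the number of members. It treats members as independent, and the alternatives rework the same arrays, so it is not an error of the median. Of 204 signs of member differences, 24 flipped under a scaling alternative, none larger than 0.06. No paired analysis was possible because each genotype had 1 array, and for the same reason no array could be left out. The yardstick restricted to brighter probe sets, a choice made after seeing the data, gave limits of 0.85, 0.90 and 0.85 against WT and placed Glrx in Foxo3aKO beside Slc7a11. Signals near the high-GC background carry little information, and probe sequences were not used here.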
